A study of Homo sapiens with 44 samples.

Results

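RelB is one of the 5 NF-kB transcription factor subunits. The comparison described here is of MDA-MB-231 cells transfected with siRNA against RELB (siRelB) and the same cells transfected with control siRNA. It consists of 4 RNA sequencing libraries, 2 per group, out of 44 samples in the series, and was chosen by the labels of the count table's columns, not by measured values. MDA-MB-231 is an established human triple-negative breast cancer line, which lacks oestrogen and progesterone receptors and HER2 amplification. Both groups carried 20 nM siRNA delivered with a lipid reagent and were harvested 48 h later, and 2 libraries with siRNA against RELA (siRelA), handled the same way, share the control libraries. The labels call the libraries biological duplicates without saying what separated them, so the p-values measure the spread between these libraries. The siRNA sequences were not analysed here, and loss of RelB and effects of the siRNA on other transcripts cannot be told apart. Less RNA per cell and fewer cells of one state cannot be told apart in bulk libraries either.

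In the canonical NF-kB arm, RelA dimerises with p50 from NFKB1 and is held in the cytoplasm by IkB proteins until the IKK complex phosphorylates them. In the non-canonical arm, the kinase NIK (gene MAP3K14) activates IKK alpha (CHUK), the p100 precursor made from NFKB2 is cut to p52, and p52 enters the nucleus with RelB. TRAF2, TRAF3 and the cIAP ligases keep NIK low in resting cells. Several genes of both arms are themselves NF-kB targets, and the pathway is known for roles in survival, inflammation and mesenchymal traits of triple-negative breast cancer cells.

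The knockdown was visible in both libraries. RELB (chr19:45001461-45038192, GRCh38) was counted with 923 and 916 counts in control replicates 1 and 2 and with 90 and 107 counts in the siRelB replicates, or 39.8 and 40.4 against 4.77 and 5.40 CPM, the count scaled to a common library size. The log2 difference, siRelB minus control, was -2.98 ± 0.16, given here and below as estimate ± SE from the quasi-likelihood fit of edgeR with n = 2 libraries per group, and the Benjamini-Hochberg adjusted p was 6.38e-09. The siRelA libraries held 15.3 and 13.4 CPM of RELB, between the other groups and apart from both. The siRelB libraries held 18599848 and 19734827 counted reads, fewer than the controls with 23191375 and 24023494. The first siRelB library stood furthest from the others in multidimensional scaling and had the fewest genes with a read (19075, against 20905 in the second). The MDA-MB-231 markers VIM and CD44 held 970.4 to 1159 and 646 to 728 CPM over the 4 libraries, and ESR1, PGR and CDH1 had too few reads to test. Summed fibroblast markers lay at 42.1 and 44.04 CPM in the controls and 46.7 and 56.0 CPM in siRelB, with no read for DCN, PDGFRA or POSTN in these 4 libraries. Summed haematopoietic markers were at 1.12 and 1.33 CPM in the controls and 1.47 and 3.07 CPM in siRelB, and 7 of those 12 genes had no read in any library.

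Of 15930 genes tested, 2913 (18.3%) were called at adjusted p under 0.05. There were 1187 genes (7.45%) higher and 1726 (10.8%) lower in siRelB, while the median log2 difference of all tested genes was 0.01. Called genes had modest differences, with a median of 1.45-fold among those that rose and 1.48-fold among those that fell. A difference of at least 2-fold was reached by 150 of the genes that rose and 308 of those that fell. The CPM ranges of the groups did not overlap for 1186 of the 1187 risen and all 1726 fallen genes, where 59.2% of all tested genes showed no overlap between 2 and 2 libraries. Calls were rarest among genes with few reads: in 4 equal sets of genes from the lowest to the highest mean CPM, 42, 285, 461 and 399 genes were higher and 74, 324, 570 and 758 lower. Without control replicate 1 there were 564 higher calls, without control replicate 2 there were 516, and the lower calls numbered 1004 without control replicate 2. Without siRelB replicate 1, the library furthest from the others, 805 genes were higher and 1276 lower.

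**Figure D1:**
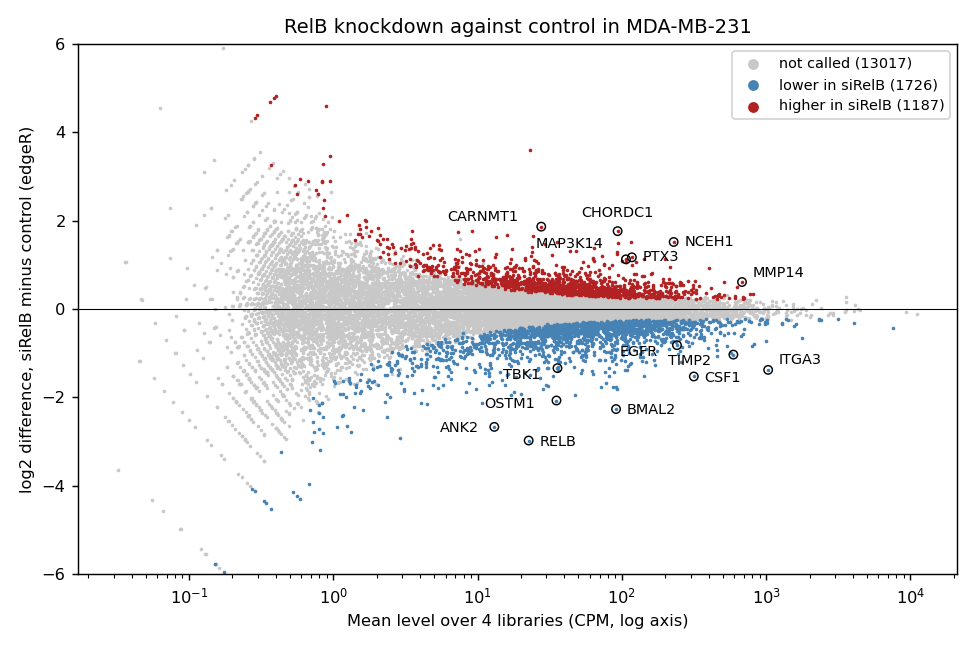
Each point is a gene, by mean CPM over the 2 control and 2 siRelB libraries (log axis) and by log2 difference, siRelB minus control, from edgeR. Blue genes (1726) and red genes (1187) passed adjusted p under 0.05, circles mark genes named in the text, and 17 genes with a log2 difference beyond 6 in size are not shown. RELB, ANK2 and BMAL2 lie near the bottom and CARNMT1 and CHORDC1 near the top of the genes with more than a few CPM.

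Among the NF-kB subunits, RELB fell and NFKB2 rose. NFKB2, the precursor of RelB's partner p52, was at 120.2 and 102 CPM in the controls, 148 and 167 CPM in siRelB and 69.2 and 73.04 CPM in siRelA. The siRelB libraries were the highest of the 6, with a log2 difference from control of 0.50 ± 0.10 (edgeR adjusted p = 0.00194), which was 0.38 (adjusted p = 0.0564) without control replicate 2. RELA had 154 and 149.6 CPM in the controls and 165 and 157 CPM in siRelB and did not pass the test (log2 0.09 ± 0.09). NFKB1, the p50 precursor, had 67.2 and 69.6 CPM in the controls and 50.02 and 59.7 CPM in siRelB and missed the threshold (log2 -0.32 ± 0.11, edgeR adjusted p = 0.0526), and REL did not pass either (log2 -0.01 ± 0.26). Of the 5 subunits, RELB and NFKB2 were called in this fit.

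Among the IKK and non-canonical kinases the gene that rose was that of NIK. MAP3K14 (chr17:45263119-45317029) had 64.4 and 69.8 CPM in the controls, 141 and 152 CPM in siRelB and 90.5 and 86.9 CPM in siRelA, without overlap. Its log2 difference was 1.13 ± 0.09 from control (adjusted p = 3.14e-07, edgeR) and 0.72 ± 0.09 from siRelA (adjusted p = 1.48e-05). TBK1, an IKK-related kinase that also restrains NIK, moved the other way, from 45.9 and 56.7 to 20.7 and 19.8 CPM (log2 -1.34 ± 0.13), while siRelA libraries had 46.8 and 48.7 CPM. The TGF-beta-activated kinase gene MAP3K7 fell by a smaller amount, from 35.5 and 35.7 to 27.3 and 24.4 CPM (log2 -0.46 ± 0.12), and the call was lost without either control replicate or without siRelB replicate 2 (adjusted p = 0.0688, 0.0734 and 0.0931, edgeR). CHUK and IKBKB, the catalytic IKK subunits, did not pass the test (log2 -0.18 ± 0.11 and -0.15 ± 0.11). Of 11 tested genes in the list of IKK and non-canonical kinases, 1 rose (9.09%) and 2 fell (18.2%), beside 7.45% higher and 10.8% lower of all tested genes. The same shares of all tested genes apply to every list count below, and they are not matched for level. Of the 3983 tested genes with the highest mean CPM, from 62.3 CPM, 399 rose and 758 fell. Lists with a median level in that range include integrins (162 CPM), hypoxia and glycolysis (101 CPM) and EMT and mesenchymal genes (86.7 CPM). LTBR, a receptor that feeds the non-canonical arm, was lower by a narrow margin (log2 -0.25 ± 0.09, adjusted p = 0.0486), and the call was lost when any 1 of the 4 libraries was left out (adjusted p from 0.0828 to 0.276).

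Among adaptors and inhibitors, 3 of 16 TRAF, IAP and deubiquitinase genes rose (18.8%, beside 7.45% of all tested genes). In this list 0 fell in edgeR (1 at unadjusted p under 0.05 and 0 in DESeq2). TRAF4, an adaptor of the TRAF family, went from 61.2 and 66.4 to 88.6 and 100.2 CPM (log2 0.57 ± 0.10, edgeR adjusted p = 0.000806), and siRelA libraries had 52.5 and 56.7 CPM. TRAF2, which binds the ligases that degrade NIK, had log2 0.31 ± 0.10, and TNFAIP3, the deubiquitinase A20, had log2 0.53 ± 0.18. Neither call held throughout: TRAF2 lost it when any 1 of the 4 libraries was left out (adjusted p from 0.0989 to 0.234), and TNFAIP3 lost it without either control replicate, or without siRelB replicate 1 (0.161, 0.266 and 0.255) and in DESeq2 (0.104). BIRC3, the cIAP2 ligase, did not pass (log2 0.27 ± 0.13), and neither did NFKBIA, the gene of IkB alpha (log2 -0.21 ± 0.10). NFKBIE, which encodes IkB epsilon, rose from 56.7 and 56.97 to 83.4 and 88.6 CPM (log2 0.60 ± 0.10), and in siRelA libraries it was at 35.5 and 35.4 CPM. TNIP1, which encodes the A20-binding inhibitor ABIN1, fell from 215 and 206 to 148 and 152 CPM (log2 -0.49 ± 0.08, adjusted p = 0.000519). With 139 and 129 CPM of TNIP1 in siRelA, the direct difference between the knockdowns of this gene did not pass (log2 0.16 ± 0.08, adjusted p = 0.157). NFKBID, of the atypical nuclear IkB proteins, had log2 0.89 ± 0.28, but lost the call in DESeq2 (adjusted p = 0.0741). It also lost the call without either control replicate, or without siRelB replicate 2 (log2 0.82, 0.95 and 0.73).

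**Figure D2:**
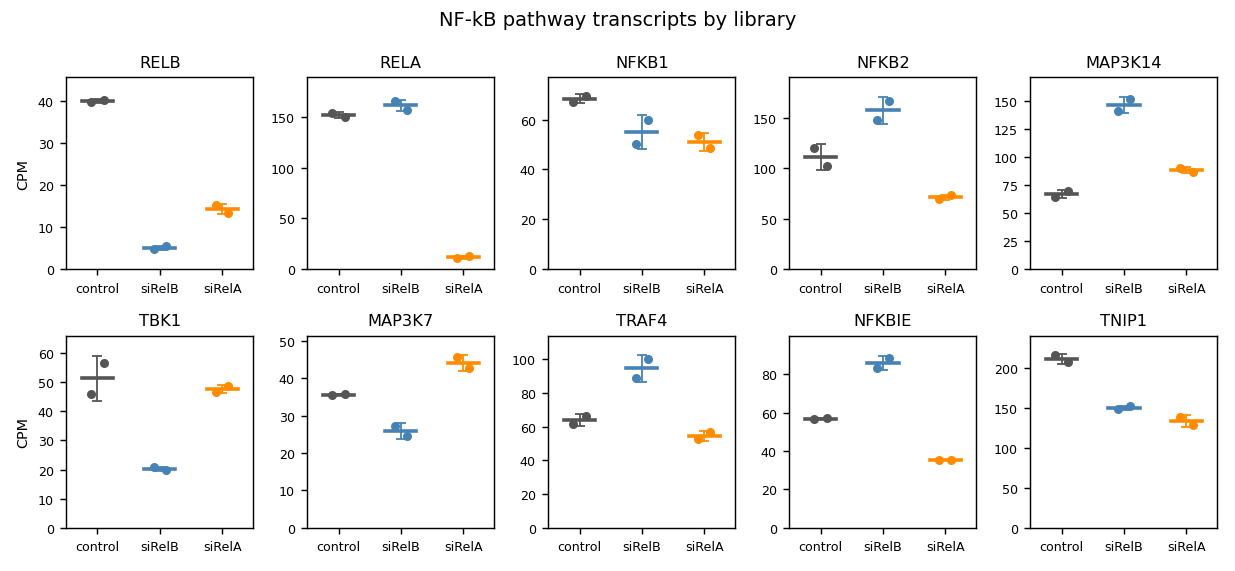
CPM of 10 NF-kB pathway transcripts, with 1 point per library, thick bars at the mean of 2 libraries and error bars of 1 SD, each panel on its own scale from 0. The siRelB libraries are the lowest for RELB, TBK1 and MAP3K7 and the highest for NFKB2, MAP3K14, TRAF4 and NFKBIE.

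The promoters of some of these genes hold the 10-letter kB consensus, the motif that NF-kB dimers bind, and 6 promoters of 5 genes are shown because they carry a match, in genes that rose (NFKB2, PTX3, CLOCK) and in genes that fell (TNIP1, BMAL2). Of 150 genes considered by name that had a promoter entry, 29 had a match. Among these were genes not called, such as NFKB1, REL, NFKBIA and BIRC3. The sequences are the 150 bases before the RefSeq start site on GRCh38.p14, written 5′ to 3′ on the gene's strand, with matches on either strand in capitals, overlapping matches joined. NFKB2 has 2 start sites in the RefSeq table.
PTX3 (chr3:157436700-157436849, plus strand): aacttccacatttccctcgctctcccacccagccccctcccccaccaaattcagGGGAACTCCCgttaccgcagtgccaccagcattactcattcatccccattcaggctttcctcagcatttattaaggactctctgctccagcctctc
CLOCK (chr4:55545933-55546082, minus strand): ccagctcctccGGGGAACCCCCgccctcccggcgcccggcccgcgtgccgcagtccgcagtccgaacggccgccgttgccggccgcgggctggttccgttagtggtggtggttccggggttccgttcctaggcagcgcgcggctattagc
TNIP1 (chr5:151081035-151081184, minus strand): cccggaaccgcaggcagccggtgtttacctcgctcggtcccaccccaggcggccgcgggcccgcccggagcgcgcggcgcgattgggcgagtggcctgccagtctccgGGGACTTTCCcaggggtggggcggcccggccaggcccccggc
NFKB2 (chr10:102394428-102394577, plus strand): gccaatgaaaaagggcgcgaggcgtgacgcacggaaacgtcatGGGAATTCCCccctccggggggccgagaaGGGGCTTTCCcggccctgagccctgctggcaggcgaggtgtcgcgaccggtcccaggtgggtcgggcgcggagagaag
NFKB2 (chr10:102395555-102395704, plus strand): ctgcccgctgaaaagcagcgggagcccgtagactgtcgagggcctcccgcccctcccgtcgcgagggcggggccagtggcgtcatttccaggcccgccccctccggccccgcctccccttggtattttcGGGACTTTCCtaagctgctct
BMAL2 (chr12:27332686-27332835, plus strand): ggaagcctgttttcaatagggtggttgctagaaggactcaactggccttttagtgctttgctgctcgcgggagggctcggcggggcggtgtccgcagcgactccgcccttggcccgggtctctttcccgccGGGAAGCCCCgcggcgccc
The 300-base promoter table, 250 bases before to 50 after the start, held the consensus in 7.73% of 35116 promoters of the same length. At least 1 promoter with a match was found for 11.9% of 11239 tested genes that matched the table by symbol. The share was 10.8% of 955 genes that rose and 12.6% of 1367 that fell, both near that of all tested genes. A match is a run of letters and not a measured binding site; the chromatin immunoprecipitation libraries of the series were not analysed here. RELB itself has no entry.

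PTX3, IL11, CXCL8 and MCL1 were higher in siRelB than in both control and siRelA. All are among the 6 genes named for a rise over control and the largest difference above siRelA, so the selection itself set this order. PTX3, a soluble pattern recognition protein, had 66.2 and 78.2 CPM in the controls, 151 and 174 CPM in siRelB and 31.8 and 38.4 CPM in siRelA. Its 3 groups did not overlap, with log2 differences of 1.17 ± 0.11 from control (adjusted p = 2.08e-06, edgeR) and 2.21 ± 0.12 from siRelA (adjusted p = 1.42e-09). IL11, a cytokine of the IL-6 family, showed the same order, with 31.8 and 32.6 CPM in the controls, 56.2 and 54.7 CPM in siRelB and 8.74 and 12.4 CPM in siRelA (log2 0.78 ± 0.14 from control and 2.39 ± 0.15 from siRelA). CXCL8, the neutrophil chemokine IL-8, had 6.85 and 6.53 CPM in the controls, 11.99 and 11.9 CPM in siRelB and 0.931 and 1.68 CPM in siRelA (log2 0.83 ± 0.23 from control and 3.20 ± 0.27 from siRelA). Its difference from control was not called without either control replicate, or without siRelB replicate 1 (edgeR adjusted p = 0.0915, 0.135 and 0.0548). MCL1, an anti-apoptotic BCL2 family member, had 276 and 289 CPM in the controls, 389 and 417 CPM in siRelB and 91.6 and 84.8 CPM in siRelA (log2 0.51 ± 0.08 from control and 2.19 ± 0.09 from siRelA). The kinase gene NUAK2 rose (log2 0.91 ± 0.20), as did the adhesion receptor gene ICAM1 (log2 0.70 ± 0.16), a call lost without control replicate 1 (adjusted p = 0.0672). In the list of NF-kB inducible effectors, 4 of 17 tested genes rose (2 without control replicate 1) and 1, the heparan sulfate proteoglycan gene SDC4, fell (log2 -0.69 ± 0.09). With all libraries these were 23.5% and 5.88% of the list, beside 7.45% and 10.8% of all tested genes, and most members were not called. Over all genes, the direct contrast gave 2227 genes (14.0%) higher and 2541 (16.0%) lower in siRelB than in siRelA. The siRelA and siRelB comparisons with control share their control libraries.

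Not every cytokine gene followed that order. LIF, another IL-6 family cytokine, fell from 108 and 115 to 75.6 and 75.5 CPM (log2 -0.56 ± 0.10, edgeR adjusted p = 0.000593), and was at 60.9 and 69.6 CPM in siRelA. IL1R1, the IL-1 receptor gene, fell from 30.9 and 32.5 to 17.2 and 18.7 CPM (log2 -0.82 ± 0.13), and CCL28, an epithelial chemokine gene, from 7.84 and 7.24 to 2.71 and 1.87 CPM (log2 -1.72 ± 0.27). Of 23 tested interleukin and IL-6 family genes, 5 rose and 4 fell, but only 1 rose without control replicate 1 and 2 without siRelB replicate 1. With all libraries 21.7% rose and 17.4% fell, beside 7.45% and 10.8% of all tested genes. CXCL1, CXCL2 and CXCL3, closely similar neighbours whose reads can be split among them, stood at 0.53 to 2.07 CPM in these 4 libraries and were not called.

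CSF1 showed one of the clearest falls of the data set. CSF1 (chr1:109910242-109930992), the macrophage colony-stimulating factor gene, was at 452 and 484 CPM in the controls and 161 and 164 CPM in siRelB, with 537 and 522 CPM in siRelA. The siRelB libraries alone were low, with log2 differences of -1.53 ± 0.08 from control (adjusted p = 6.38e-09) and -1.70 ± 0.08 from siRelA (adjusted p = 2.92e-10, edgeR). CSF2, the granulocyte-macrophage factor gene, went from 5.56 and 5.83 to 1.91 and 2.88 CPM (log2 -1.25 ± 0.33). Unlike CSF1, it was lower still in siRelA, at 0.971 and 1.18 CPM. CSF1R, the receptor for CSF1, went from 11.6 and 10.9 to 5.83 and 8.33 CPM (log2 -0.67 ± 0.19), with 16.0 and 16.1 CPM in siRelA. The calls of CSF2 and CSF1R against control were lost without either control replicate, or without siRelB replicate 1. Of the TNF receptor family, 2 of 19 tested genes rose and 3 fell, with 1 rise and 1 fall without control replicate 2 and 1 fall without siRelB replicate 1. With all libraries 10.5% of this family rose and 15.8% fell, beside 7.45% and 10.8% of all tested genes. TNFRSF12A, the TWEAK receptor gene, rose from 127 and 120.2 to 255 and 290.4 CPM (log2 1.14 ± 0.12). NGFR, the p75 neurotrophin receptor gene, fell from 37.8 and 31.3 to 16.2 and 19.99 CPM (log2 -0.93 ± 0.15).

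Integrins, the receptors for matrix proteins, were lower or not called. Of 15 tested integrin genes 0 rose in edgeR (0 at unadjusted p under 0.05 and 0 in DESeq2) and 5 fell (33.3%), with a median log2 difference of -0.35 against 0.01 for all tested genes, and 4 or 5 fell when any 1 of the 4 libraries was left out. ITGA3 (chr17:50055968-50090481), the alpha-3 chain of a laminin receptor, had 1500 and 1484 CPM in the controls, 595 and 554 CPM in siRelB and 1634 and 1487 CPM in siRelA (log2 -1.38 ± 0.08, edgeR adjusted p = 7.51e-09). ITGA6, the alpha-6 chain of other laminin receptors, fell from 652 and 717 to 405 and 367 CPM (log2 -0.83 ± 0.08). ITGA2, the collagen receptor chain, fell from 191 and 241 to 114 and 100.1 CPM (log2 -1.02 ± 0.11). For all 3 genes the siRelA libraries lay at or near the control range, and the log2 differences of siRelB from siRelA were -1.44 ± 0.08, -0.93 ± 0.08 and -0.97 ± 0.11. ITGB8 fell to 11 and 2 counts in the siRelB libraries from 56 and 43 counts (log2 -2.65 ± 0.56). The partner chains did not pass: ITGB1 had log2 -0.17 ± 0.07 and ITGB4 log2 -0.18 ± 0.08, and the fibronectin receptor chain ITGA5 had -0.03 ± 0.08.

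Genes of matrix turnover were called in both directions. TIMP2, an inhibitor of metalloproteinases, fell from 823 and 769.7 to 401 and 378 CPM (log2 -1.03 ± 0.08, edgeR adjusted p = 1.46e-07) and TIMP3 from 353 and 363 to 219.9 and 211 CPM (log2 -0.73 ± 0.08), while TIMP1 did not pass (log2 0.25 ± 0.10). MMP14, the membrane-bound metalloproteinase that TIMP2 binds, rose from 550.0 and 527 to 806 and 839.7 CPM (log2 0.61 ± 0.07). The siRelA libraries had 753 and 763 CPM of MMP14, and the direct difference did not pass (log2 0.12 ± 0.07, adjusted p = 0.243). Of 38 tested collagen and matrix glycoprotein genes 4 rose and 10 fell, with 5 falls without siRelB replicate 2 and 6 without control replicate 2. With all libraries 10.5% of this list rose and 26.3% fell, beside 7.45% and 10.8% of all tested genes. The basement membrane collagen gene COL4A2 rose (log2 0.80 ± 0.09), as did COL12A1 (log2 0.75 ± 0.09). The lysyl oxidase gene LOXL4 fell (log2 -0.93 ± 0.09), as did COL13A1 (log2 -0.65 ± 0.10). HAS2, a hyaluronan synthase gene, was at 12.03 and 14.2 CPM in the controls and 3.77 and 3.33 CPM in siRelB (log2 -1.89 ± 0.23). Of 14 tested EMT factors and mesenchymal genes 1 rose (7.14%) and 4 fell (28.6%). SNAI2, the transcription factor Slug, fell (log2 -0.63 ± 0.11), as did FN1, fibronectin (log2 -0.42 ± 0.09). The matrix protein gene TGFBI rose (log2 0.41 ± 0.10), a call lost without control replicate 1 (edgeR adjusted p = 0.099), and VIM and CD44 did not pass (log2 -0.14 ± 0.08 and -0.16 ± 0.07).

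**Figure D3:**
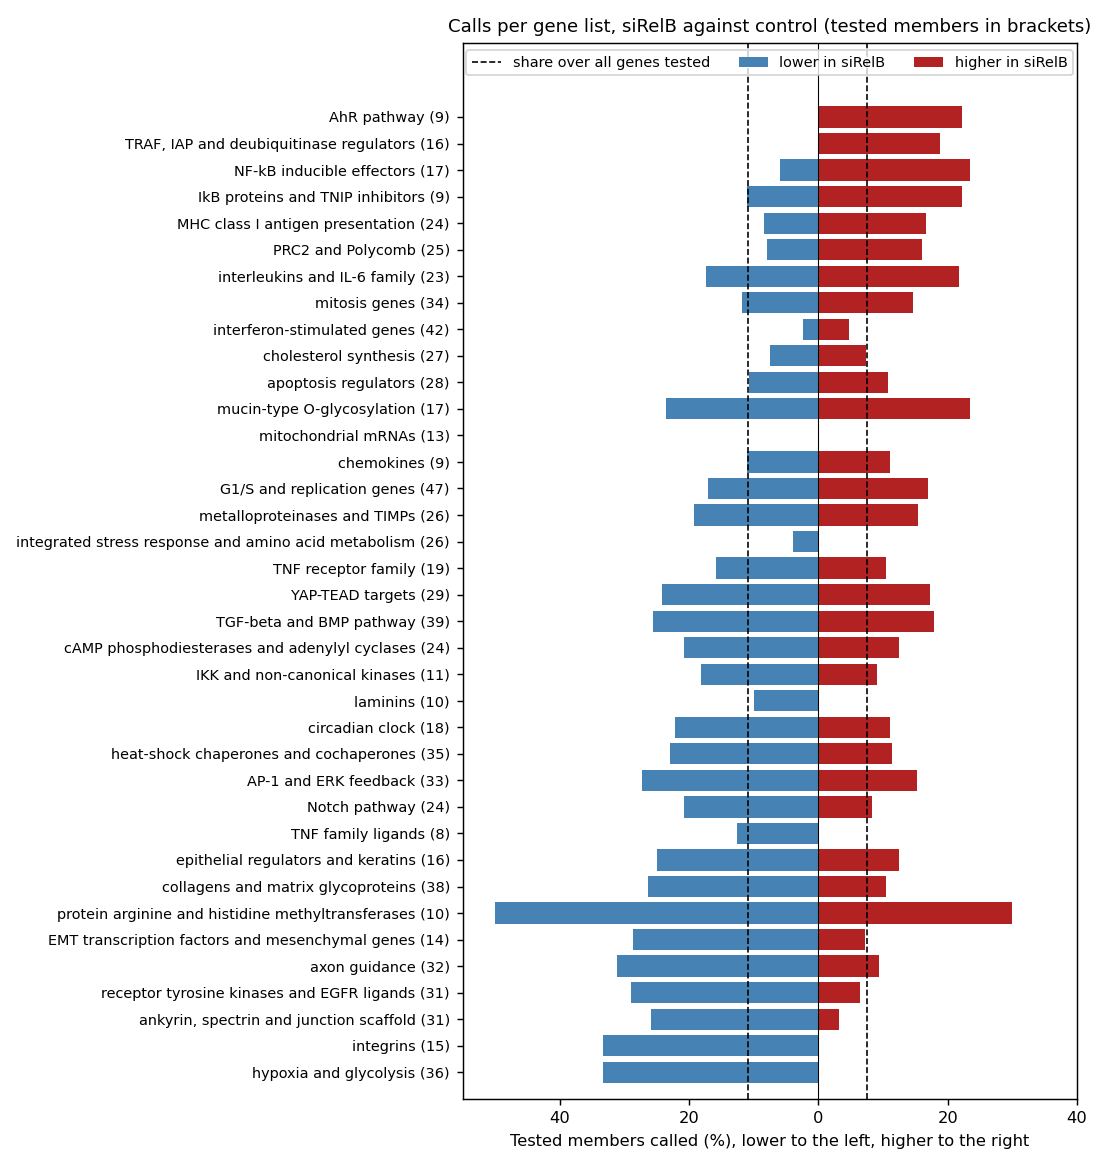
Share of tested members called in siRelB against control for gene lists with at least 8 tested members, lower to the left and higher to the right. The list of MDA-MB-231 and receptor status markers is not shown (10 tested genes, 0 higher and 4 lower). Dashed lines mark the share over all 15930 tested genes, 10.8% lower and 7.45% higher, not matched for level. Integrins and the hypoxia list have calls to the left only (33.3% each). So do TNF family ligands (12.5%), laminins (10.0%) and the integrated stress response list (3.85%), and mitochondrial mRNAs have none.

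EGFR and several growth factor genes fell. Of 31 tested receptor tyrosine kinase and ligand genes 2 rose (6.45%) and 9 fell (29.0%), beside 7.45% and 10.8% of all tested genes. When any 1 of the 4 libraries was left out 6 to 8 fell, and 0 rose except 1 without control replicate 2. EGFR, the epidermal growth factor receptor gene, went from 294 and 321 to 180.2 and 169 CPM, with 337 and 327 CPM in siRelA (log2 -0.82 ± 0.08 from control, edgeR adjusted p = 3.14e-06). Its ligand TGFA fell from 122 and 136 to 77.4 and 69.05 CPM (log2 -0.82 ± 0.10) and its ligand AREG from 113 and 108 to 60.4 and 63.04 CPM (log2 -0.84 ± 0.10). The AREG level in siRelA, 52.4 and 63.04 CPM, overlapped that in siRelB. INSR, the insulin receptor gene, fell (log2 -0.96 ± 0.14), as did the growth factor genes VEGFC (log2 -0.70 ± 0.11) and PDGFC (log2 -0.58 ± 0.10). From siRelA, INSR differed by log2 -0.76 ± 0.14, while VEGFC (-0.16 ± 0.12) and PDGFC (-0.03 ± 0.10) did not pass. The hepatocyte growth factor receptor gene MET did not pass against control (log2 -0.16 ± 0.08). Of the phosphatases that switch off ERK, DUSP7 fell from 124 and 119 to 38.8 and 46.4 CPM (log2 -1.51 ± 0.11) and DUSP6 rose from 92.8 and 92.6 to 157 and 162 CPM (log2 0.78 ± 0.08).

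In the TGF-beta and BMP pathway, 5 receptor genes fell and 2 rose, and ID1 and ID3, known targets of BMP signalling, rose. TGFBR3, betaglycan, fell from 46.9 and 56.7 to 20.5 and 19.2 CPM (log2 -1.39 ± 0.13, edgeR adjusted p = 1.01e-06), TGFBR2 from 371 and 404 to 234 and 221 CPM (log2 -0.77 ± 0.08) and the BMP receptor gene BMPR1A from 59.5 and 58.96 to 42.6 and 37.8 CPM (log2 -0.56 ± 0.11). TGFBR1 (log2 -0.33 ± 0.10) and BMPR2 (log2 -0.45 ± 0.13) also fell, and neither was called without control replicate 2 or without siRelB replicate 2 (edgeR adjusted p from 0.127 to 0.296). The activin receptor genes ACVR2A (log2 0.67 ± 0.19) and ACVR2B (log2 0.94 ± 0.21) rose, and neither was called without control replicate 1 or without siRelB replicate 1 (edgeR adjusted p from 0.0618 to 0.258). The siRelA libraries held 466 and 440.3 CPM of TGFBR2, above the controls. ID3 and ID1, inhibitors of helix-loop-helix factors, rose (log2 1.67 ± 0.16 and 0.99 ± 0.13). Both were also high in siRelA (33.4 and 29.7 CPM of ID3 and 157 and 128 CPM of ID1), and their direct differences did not pass (adjusted p = 0.0621 for ID3 and 0.0662 for ID1). Over the whole TGF-beta and BMP list 7 of 39 tested genes rose (17.9%) and 10 fell (25.6%), beside 7.45% and 10.8% of all tested genes. Without control replicate 2 there were 4 falls, without siRelB replicate 2 there were 5, and the rises numbered 3 without control replicate 1, 4 without control replicate 2 and 2 without siRelB replicate 1.

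In the Notch pathway the receptor genes NOTCH1 and NOTCH2 and the ligand gene JAG1 fell. JAG1 went from 158 and 176 to 97.1 and 98.4 CPM (log2 -0.77 ± 0.09), NOTCH2 from 327 and 368 to 211 and 210.5 CPM (log2 -0.72 ± 0.09) and the coactivator gene MAML2 from 37.2 and 41.9 to 18.9 and 18.5 CPM (log2 -1.08 ± 0.13, edgeR adjusted p = 1.40e-05), within a list of 24 tested genes with 2 rises and 5 falls. These rises and falls were 8.33% and 20.8% of the list, beside 7.45% and 10.8% of all tested genes. NOTCH1 had a log2 difference of -0.51 ± 0.09. The other tested receptor and ligand genes did not pass, with log2 differences of 0.85 ± 0.65 for NOTCH3, -0.33 ± 0.82 for NOTCH4, 0.48 ± 0.20 for JAG2 and 1.34 ± 0.93 for DLL1. Only 1 rise was called without control replicate 2, and 0 without control replicate 1, siRelB replicate 1 or siRelB replicate 2. Of 32 tested axon guidance genes 3 rose and 10 fell (31.2%), with 7 to 10 falls when any 1 of the 4 libraries was left out, and 1 rise without either control replicate. The 3 rises were 9.38% of the axon guidance list, and of all tested genes 7.45% rose and 10.8% fell. The secreted guidance cue SLIT2 fell from 21.3 and 27.1 to 9.81 and 10.1 CPM (log2 -1.28 ± 0.16). The receptor gene EPHB2 (log2 -0.91 ± 0.09) and the ligand gene EFNB2 (log2 -0.72 ± 0.10) also fell, and the semaphorin gene SEMA7A rose (log2 0.59 ± 0.09).

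Circadian clock genes were called in both directions, 11.1% of the list higher and 22.2% lower, beside 7.45% and 10.8% of all tested genes. BMAL2 (chr12:27332836-27425289), a dimerisation partner of CLOCK, had 143 and 158 CPM in the controls, 30.98 and 31.9 CPM in siRelB and 127 and 110.2 CPM in siRelA. Its log2 difference was -2.26 ± 0.10 (adjusted p = 2.40e-09, edgeR). Among protein-coding genes with a mean of at least 5 CPM, this fall was the largest after those of RELB and ANK2. NPAS2, a paralogue of CLOCK, fell from 165 and 152 to 100.3 and 94.1 CPM (log2 -0.70 ± 0.10), and the repressor gene BHLHE40 from 72.8 and 70.1 to 47.5 and 47.8 CPM (log2 -0.59 ± 0.10). CLOCK moved in the opposite direction, with 46.8 and 54.6 CPM in the controls, 89.2 and 80.8 CPM in siRelB and 31.3 and 25.1 CPM in siRelA (log2 0.75 ± 0.12 from control and 1.59 ± 0.12 from siRelA). BMAL1, the paralogue of BMAL2, did not pass (log2 0.43 ± 0.17, adjusted p = 0.0941), nor did PER2 (log2 -0.55 ± 0.23). The whole list had 2 rises and 4 falls among 18 tested genes, with 1 rise and 3 or 4 falls when any 1 of the 4 libraries was left out.

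Hypoxia and glycolysis genes fell or were not called. Of 36 tested genes 0 rose in edgeR (2 at unadjusted p under 0.05 and 0 in DESeq2) and 12 fell (33.3%), HK2 at the threshold itself, and 8 to 11 fell when any 1 of the 4 libraries was left out. The oxygen-regulated transcription factor gene HIF1A fell from 496 and 521 to 297 and 256 CPM (log2 -0.88 ± 0.09), and in siRelA it was lower still at 215 and 193 CPM. VEGFA, the angiogenic factor gene, fell from 336 and 338 to 192 and 178 CPM (log2 -0.87 ± 0.09), the hypoxia-inducible gene NDRG1 from 199 and 185 to 82.4 and 88.5 CPM (log2 -1.17 ± 0.09) and the carbonic anhydrase gene CA12 from 17.3 and 15.8 to 6.26 and 5.96 CPM (log2 -1.44 ± 0.16). PDK1, which restrains pyruvate oxidation, fell (log2 -0.78 ± 0.15 from control and 0.01 ± 0.15 from siRelA). The glucose transporter gene SLC2A3 also fell (log2 -0.63 ± 0.11), and was lower still in siRelA at 19.1 and 16.1 CPM. LDHA, which makes lactate, did not pass the test, with 2082 and 1854 CPM in the controls and 1780 and 1822 CPM in siRelB (log2 -0.13 ± 0.08, edgeR adjusted p = 0.274), against 506 and 474 CPM in siRelA.

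**Figure D4:**
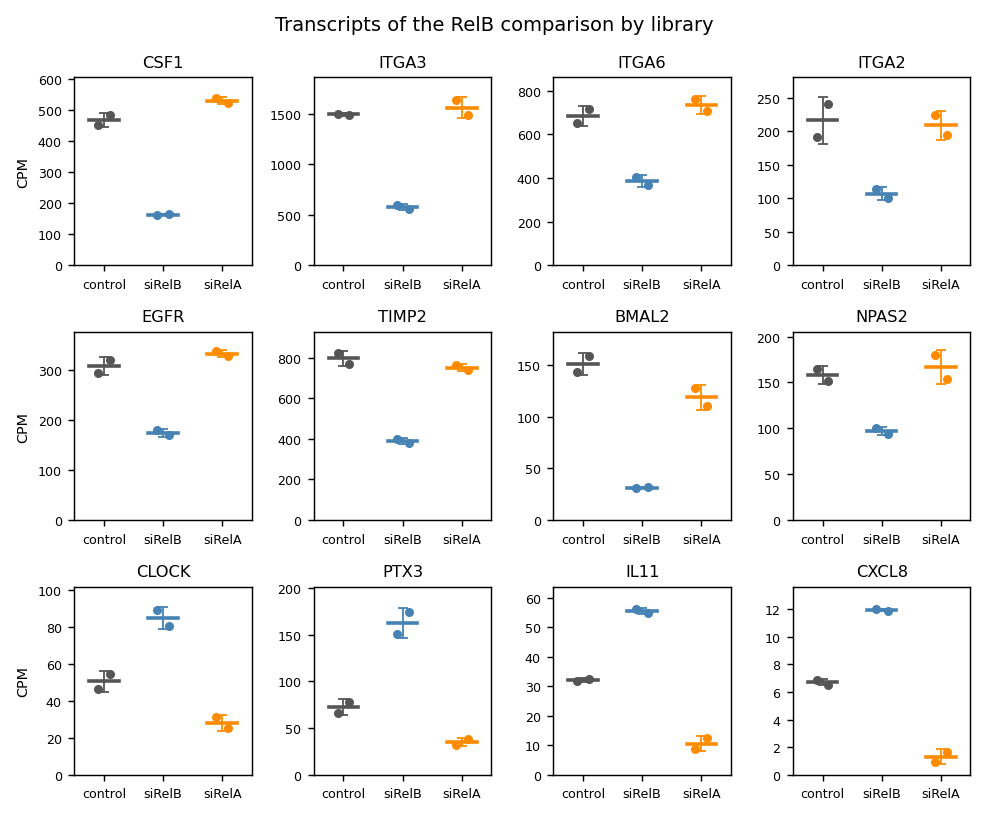
CPM of 12 transcripts by library, with 1 point per library, thick bars at the mean of 2 libraries and error bars of 1 SD, each panel on its own scale from 0. For CSF1, ITGA3, ITGA6, ITGA2, EGFR, TIMP2, BMAL2 and NPAS2 both siRelB libraries lie below the other 4. For CLOCK, PTX3, IL11 and CXCL8 they lie above the other 4.

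Among protein-coding genes with a mean of at least 5 CPM and no overlap, the largest rises were in genes of varied function. Outside this ranking, 25 called genes rose at least 4-fold. CHORDC1 (chr11:90200429-90223077), an HSP90 co-chaperone, rose from 39.7 and 45.4 to 148 and 141 CPM (log2 1.76 ± 0.10, edgeR adjusted p = 7.51e-09), and was at 73.5 and 78.5 CPM in siRelA. NCEH1, a cholesteryl ester hydrolase, rose from 117 and 120.0 to 337 and 341 CPM (log2 1.52 ± 0.08), SPCS3, a signal peptidase subunit, from 56.98 and 62.7 to 182 and 158 CPM (log2 1.51 ± 0.10), and PGM2, a phosphopentomutase, from 48.8 and 49.03 to 139.9 and 137 CPM (2.83-fold). ANKRD46 rose from 11.6 and 12.1 to 37.1 and 36.9 CPM, and at 10.2 and 10.3 CPM siRelA lay below siRelB (log2 1.86 ± 0.14, siRelB minus siRelA). In a second set the siRelA libraries lay near those of siRelB: CARNMT1, the carnosine N-methyltransferase (10.3 and 13.5 CPM in the controls, 43.3 and 43.4 CPM in siRelB and 55.7 and 44.6 CPM in siRelA), CHIC1 (6.03 and 7.06 CPM in the controls, 19.5 and 20.9 CPM in siRelB and 20.9 and 23.7 CPM in siRelA), the endocytic protein gene NECAP1 and the peptidase gene LMLN. NECAP1 was at 17.9 and 18.9 CPM in the controls, 53.8 and 51.5 CPM in siRelB and 44.9 and 46.3 CPM in siRelA, and LMLN at 14.2 and 16.9, then 40.7 and 45.8, then 42.4 and 39.02 CPM in the same order. None of these 4 differed between the knockdowns at adjusted p under 0.05 in edgeR (log2 -0.21 ± 0.14, -0.14 ± 0.15, 0.21 ± 0.11 and 0.09 ± 0.13). CTXN1 rose (log2 1.77 ± 0.25), as did the palmitoyltransferase gene ZDHHC11 (log2 1.45 ± 0.31), which has a close copy and whose call was lost without siRelB replicate 2 (log2 0.90, adjusted p = 0.0828). EIF3CL, with 3.32 and 3.75 CPM in the controls and 2.39 and 83.2 CPM in siRelB, is left out of this ranking because its groups overlap. EIF3C is a near-identical copy, and how reads were assigned between the 2 genes was not tested.

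Among protein-coding genes with a mean of at least 5 CPM, the largest falls after RELB included membrane, trafficking and cytoskeletal genes. At all levels, 55 called genes fell at least 4-fold. ANK2 (chr4:112818032-113384221), ankyrin-B, which links membrane proteins to spectrin, fell from 21.1 and 24.01 to 3.82 and 3.28 CPM (log2 -2.67 ± 0.19, edgeR adjusted p = 1.17e-07) and was at 15.3 and 19.3 CPM in siRelA. OSTM1, the partner of a lysosomal chloride transporter, fell from 52.4 and 61.4 to 13.00 and 14.1 CPM (log2 -2.07 ± 0.12), the pannexin gene PANX2 from 19.6 and 15.5 to 3.92 and 4.14 CPM (log2 -2.12 ± 0.19) and the carrier membrane protein gene SCAMP2 from 81.3 and 69.5 to 23.9 and 14.99 CPM (log2 -1.96 ± 0.16). The direct difference from siRelA was log2 -2.38 ± 0.12 for OSTM1, -2.77 ± 0.19 for PANX2, -1.95 ± 0.16 for SCAMP2 and -2.28 ± 0.19 for ANK2. ARHGAP31, which inactivates Rac and Cdc42, fell (log2 -1.94 ± 0.16), as did the transcriptional repressor gene HIC1 (log2 -1.92 ± 0.16), the branching glycosyltransferase gene GCNT2 (log2 -1.82 ± 0.11), the translation factor gene EIF5A2 (log2 -1.81 ± 0.15) and the cell adhesion gene NEGR1 (log2 -1.82 ± 0.23). All 5 were also lower in siRelB than in siRelA in edgeR, with log2 differences of -2.01 ± 0.16, -1.61 ± 0.16, -1.41 ± 0.11, -1.99 ± 0.15 and -0.80 ± 0.23. The cadherin gene CDH4 fell from 94.6 and 86.3 to 32.8 and 35.5 CPM (log2 -1.40 ± 0.11).

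Several other groups had calls in both directions or few calls. Among 10 tested protein arginine and histidine methyltransferases 3 rose (1 without control replicate 2, siRelB replicate 1 or siRelB replicate 2) and 5 fell. With all libraries 30.0% of this list rose and 50.0% fell, beside 7.45% and 10.8% of all tested genes. Besides CARNMT1, named above, CARM1 fell from 145 and 131 to 86.6 and 80.8 CPM (log2 -0.72 ± 0.10), as did PRMT6 (log2 -0.93 ± 0.14) and SETD3 (log2 -0.67 ± 0.09). G1/S and replication genes were called 8 times in each direction out of 47 (17.0% each, beside 7.45% and 10.8% of all tested genes). The ribonucleotide reductase gene RRM2 rose from 99.1 and 77.8 to 195 and 195 CPM (log2 1.14 ± 0.10, edgeR adjusted p = 9.36e-07). CCNE2, cyclin E2, also rose (log2 1.36 ± 0.15) and the CDK inhibitor gene CDKN2C fell (log2 -0.97 ± 0.11). The 8 rises were 5 without control replicate 2, 5 without siRelB replicate 2 and 3 without control replicate 1, and the 8 falls were 5 without control replicate 1. Genes of MHC class I presentation rose 4 times and fell 2 times out of 24, with rises of the trimming peptidase gene ERAP1 (log2 1.01 ± 0.09) and the peptide transporter gene TAP1 (log2 0.44 ± 0.09), but only 2 rose without control replicate 2 or siRelB replicate 2, and 0 fell when any 1 of the 4 libraries was left out. With all libraries 16.7% of the MHC class I list rose and 8.33% fell, beside 7.45% and 10.8% of all tested genes. ERAP1 was about as high in siRelA, with a direct difference of log2 0.01 ± 0.09. Of 42 interferon-stimulated genes 2 rose (4.76%) and 1 fell (2.38%), below the shares of all tested genes. With any 1 of the 4 libraries left out, 1 or 2 of them rose and 0 to 2 fell. Of 26 genes of the integrated stress response and amino acid metabolism 0 rose in edgeR (6 at unadjusted p under 0.05 and 1 in DESeq2) and 1 fell (3.85%), the arginine transporter gene SLC7A1 (log2 -0.37 ± 0.09), a call lost without siRelB replicate 2 (adjusted p = 0.0685). Of 13 mitochondrial mRNAs 0 were called in either direction in edgeR (1 higher at unadjusted p under 0.05 and 1 higher in DESeq2). The Polycomb methyltransferase gene EZH2, knocked down elsewhere in the series, had 112 and 107 CPM in the controls and 122 and 122 CPM in siRelB and did not pass (log2 0.16 ± 0.09, adjusted p = 0.237).

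YAP-TEAD targets, read-outs of the Hippo pathway, were called higher for 5 (17.2%) and lower for 7 (24.1%) of 29 tested genes. Of all tested genes 7.45% rose and 10.8% fell. These shares are not matched for level, and the median of the YAP-TEAD list was 122 CPM. It lay within the set of 3983 genes with the highest mean CPM, of which 399 rose and 758 fell. IGFBP3, an insulin-like growth factor binding protein gene, fell from 94.6 and 89.9 to 31.2 and 35.1 CPM and was at 60.5 and 56.6 CPM in siRelA (log2 -1.48 ± 0.10 from control and -0.82 ± 0.10 from siRelA). The membrane repair gene MYOF fell from 739 and 786 to 388 and 375 CPM (edgeR adjusted p = 1.93e-07), while its siRelA libraries held 779 and 725 CPM. The RNA-binding protein gene RBMS3 fell from 23.1 and 24.1 to 7.00 and 7.27 CPM (log2 -1.73 ± 0.16). CCN1, the matricellular protein CYR61, fell from 1030 and 1055 to 575 and 624 CPM (log2 -0.80 ± 0.09), with 472 and 564 CPM in siRelA, and its direct difference did not pass (adjusted p = 0.0805). Ankyrin, spectrin and junction genes rose in 3.23% and fell in 25.8% of the list, beside 7.45% and 10.8% of all tested genes. Of 31 tested ankyrin, spectrin and junction genes 1, the spectrin gene SPTAN1, rose (log2 0.49 ± 0.08) and 8 fell, with 1 or 2 rises and 6 to 8 falls when any 1 of the 4 libraries was left out.

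Enzymes of mucin-type O-glycosylation were called 4 times in each direction out of 17 tested genes, with 2 rises without either control replicate, or without siRelB replicate 2. With all libraries this was 23.5% in each direction, beside 7.45% higher and 10.8% lower of all tested genes. GALNT3 rose from 40.1 and 47.9 to 72.9 and 76.5 CPM (log2 0.76 ± 0.11). Its paralogues GALNT7 (log2 -0.57 ± 0.10), GALNT5 (log2 -0.52 ± 0.10) and GALNT12 (log2 -2.45 ± 0.39) fell. In cAMP signalling 3 of 24 genes rose and 5 fell, 3 of them without control replicate 2 or siRelB replicate 2. With all libraries 12.5% of the cAMP list rose and 20.8% fell. The phosphodiesterase gene PDE4A fell from 72.3 and 75.2 to 41.7 and 33.9 CPM (log2 -0.97 ± 0.11). Its paralogue PDE4B rose to 6.05 and 4.90 CPM (log2 1.78 ± 0.32, edgeR adjusted p = 0.000978). PRKAR2B, a regulatory subunit of protein kinase A, fell from 6.85 and 8.21 to 2.33 and 2.88 CPM (log2 -1.53 ± 0.25). Among apoptosis regulators 3 of 28 rose, among them the effector gene BAK1 (log2 0.59 ± 0.09), and 3 fell, with 1 fall without control replicate 2. With all libraries 10.7% of the apoptosis list was called in each direction, near the shares of all tested genes (7.45% higher and 10.8% lower). PHF19, an accessory subunit of the Polycomb complex PRC2, fell from 269 and 262 to 179 and 187 CPM (log2 -0.54 ± 0.08). The cholesterol synthesis gene HMGCS1 rose from 29.1 and 27.7 to 47.9 and 44.7 CPM (log2 0.71 ± 0.11). Its list of 27 had 2 rises and 2 falls, 7.41% in each direction, beside 7.45% higher and 10.8% lower of all tested genes. Of these there was 1 rise without control replicate 2 or siRelB replicate 2, 1 fall without control replicate 2, and 0 falls without control replicate 1 or siRelB replicate 1.

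The next ranking holds protein-coding genes with a mean of at least 5 CPM over the 6 libraries, called the same way against both groups. In it the largest positive differences from siRelA were those of CXCL8, FAM167A, ALDH9A1, IL11, PTX3 and MCL1. ALDH9A1, an aldehyde dehydrogenase, was at 101 and 105 CPM in the controls, 126 and 123 CPM in siRelB and 18.2 and 19.2 CPM in siRelA (log2 2.73 ± 0.10 from siRelA, edgeR adjusted p = 2.08e-11). Its siRelA libraries stood far below the other 4. Its rise over control (log2 0.27 ± 0.09) was not called when any 1 of the 4 libraries was left out (adjusted p from 0.136 to 0.274). The largest negative ones in the ranking were those of ANGPT1, PANX2, CDC42BPG, OSTM1, ANK2 and HECW1. ITGB8, below 5 CPM and so outside it, had log2 -3.61 ± 0.54 from siRelA. ANGPT1, angiopoietin-1, was at 4.22 and 5.43 CPM in the controls, 1.64 and 1.01 CPM in siRelB and 9.92 and 9.37 CPM in siRelA (log2 -1.86 ± 0.30 from control and -2.86 ± 0.29 from siRelA). FAM167A and CDC42BPG lost their call against control without either control replicate, or without 1 siRelB library, and in DESeq2 (adjusted p = 0.0616 and 0.0571), and HECW1 without either control replicate, or without siRelB replicate 1 (edgeR adjusted p from 0.0576 to 0.118).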

How the data were processed

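RNA was sequenced from 6 MDA-MB-231 libraries, 2 each of control siRNA, siRelA and siRelB, grouped by their labels. The authors deposited whole-number read counts per Ensembl gene (58735 genes). Per the submitters' processing notes, the build was hg19 and the tools were featureCounts 1.5.0-p3, HISAT2 2.0.5 and DESeq2 1.20.0. No source used here gives the strand setting or annotation release, so reads of overlapping or antisense genes cannot be separated. Positions are from GENCODE 44 on GRCh38, not converted, and promoters from RefSeq on GRCh38.p14 (150 of the 192 genes considered by name had an entry).

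From the deposited counts, edgeR 4.0.16 (R 4.3.3; TMM factors 0.967 to 1.025, default low-count filter, group term, all 6 libraries) gave quasi-likelihood tests (3 residual degrees of freedom, common biological variation 10.1%). Calls are at Benjamini-Hochberg adjusted p under 0.05 over 15930 genes. CPM use TMM-scaled totals. The procedure was checked on simulated counts. DESeq2 1.42.0, other scalings, no filter, fewer libraries and a replicate block were alternatives.

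The comparison and the 42 gene lists (1017 of 1018 entries matched) were chosen with earlier results of these data known. Named by rule were called genes of the NF-kB lists and all 5 subunits, and up to 4 members per other list. Also named were the 12 largest rises and falls, without overlap, and the 6 largest differences from siRelA per direction. These rankings held protein-coding genes at a mean of 5 CPM or more. Genes not called other than the NF-kB subunits, and ACVR2A, ACVR2B, BMPR1A, BMPR2, TGFBI, TGFBR1, LTBR, PDK1, SLC2A3, VEGFC, PDGFC, EIF3CL and HK2, were named after their values were seen. A few results are not reported here.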

Additional observations from a re-analysis of the deposited data

How the results depend on the processing

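With all 6 libraries or all 4 of the comparison kept, siRelB against control gave 1084 to 1403 higher and 1623 to 1947 lower genes over other scaling factors, DESeq2, no filter on low counts, robust dispersion and the fit of only the groups compared. Leaving out 1 library at a time gave 516 to 1386 higher and 1004 to 1979 lower genes, and against siRelA 1604 to 2182 higher and 1720 to 2320 lower. A lone library was then assumed to vary like the other groups. Of the 156 called genes named by rule, 145 kept their call in every alternative with all libraries of the comparison and 114 in every fit with 1 library left out. REL, not called, had a log2 difference of 0.01 with upper-quartile factors and of -0.09 to 0.06 with 1 library left out, against -0.01. NOTCH4, not called, had -0.33, and -0.79 to 0.26 with 1 library left out. With the replicate block there were 1149 higher and 1679 lower genes (2191 and 2489 against siRelA), and it ended the calls of TRAF2, TNFAIP3, ERBB2, ALDH9A1 and LTBR among genes considered by name. The labels do not say that numbers mark a shared batch, and same-numbered deviations had correlations of -0.010, -0.025 and 0.048. Depth limits the 3983 genes with the lowest levels, up to 2.21 CPM, of which 42 were called higher and 74 lower.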
